A study of Ovis aries with 62 samples.

Results

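The extracellular matrix genes *COL1A1* (ENSOARG00000004871), *FN1* (ENSOARG00000019329), *MMP1* (ENSOARG00000005315) and *ZNF469* (ENSOARG00000012448) were followed through the rumen wall of 62 sheep. They are 4 of the 16011 genes measured there by RNA sequencing. They were chosen by name, through the tables of the study that pair gene identifiers with symbols, and all 4 were found. The study had placed *COL1A1* and *FN1* in its muscle cluster by their co-expression in these same animals, so their relations with muscle genes and with each other are given as a description. *MMP1* and *ZNF469* were taken from genes that the study related to the time feed stays in the rumen. That time was measured in this experiment and was not analysed here. *ZNF469* was also chosen partly for its relation with CH4 yield.

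The sheep were adult Merino ewes on the same lucerne and oat chaff diet, tested for CH4 emission in 4 blocks (test periods) of 16, 16, 14 and 16 animals. Each sheep gave 1 library of the full thickness of the ventral rumen wall, which holds the epithelium, the connective tissue beneath it and the muscle layers. The blocks are the only groups in the labels, and no group was treated differently. The ewes of the experiment were by 4 sires, and the labels do not give the sire of each. A p here therefore treats related animals as independent, and sets a difference against the spread between animals. The libraries held between 4208032 and 12130080 reads assigned to genes. Their median was 6812020 in block 1 and 8215481, 8694507 and 8588581 in blocks 2 to 4. All levels are log2 CPM, which scales the reads of each gene to the size of its library.

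*COL1A1* encodes a chain of type I collagen, the main fibre of connective tissue, which assembles with the chain encoded by *COL1A2*. *FN1* encodes fibronectin, a glycoprotein that cells bind through integrins and on which other matrix proteins are laid down. *MMP1* encodes interstitial collagenase, a secreted protease that cuts fibrillar collagens and is made by epithelial cells and fibroblasts in tissue that is being remodelled. *ZNF469* encodes a zinc finger protein whose loss causes a thin, fragile cornea and which is linked to the control of collagen genes. In a muscular organ such as the rumen, matrix is made both by fibroblasts and by the smooth muscle cells themselves. In whole tissue, fewer cells of a type and less RNA per cell cannot be told apart.

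*COL1A1* and *FN1* were read deeply in every sheep, and *MMP1* and *ZNF469* were not. *COL1A1* ran from 6.95 to 9.53 log2 CPM with a median of 8.07 and rested on 758 to 6907 reads. *FN1* ran from 8.46 to 12.35 with a median of 9.75, on 1940 to 59013 reads. Both genes varied far beyond counting error, which came to an SD of 0.03 and 0.02 log2 for these read numbers, against an SD of 0.64 and 0.83 between sheep. *ZNF469* ran from -1.11 to 3.94 with a median of 1.41, on 2 to 102 reads. *MMP1* ran from -4.42 to 4.56 with a median of 0.08, on 0 to 288 reads. Its SD between sheep, 1.98, was exceeded by that of 0.344% of all genes. Counting error was larger for these genes, with an SD of 0.36 log2 for *ZNF469* and 0.85 log2 for *MMP1*. In 6 sheep, *MMP1* had no read at all, which allows a level of up to 0.279 to 0.522 CPM in these libraries (3 reads). The values of -4.42 to -3.64 log2 CPM listed for these sheep are set by the offset of 0.5 reads and the depth of the library.

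All 4 genes varied between the blocks, and block 1 was at one end of the order in each. In *COL1A1*, block 1 ran from 7.64 to 9.53 log2 CPM with a median of 8.76, and blocks 2, 3 and 4 had medians of 8.02, 7.81 and 7.86. The groups overlapped widely, with 14 of the 16 sheep of block 1 above the median of the other 46 sheep and 1 above their highest. In *FN1*, block 1 ran from 9.29 to 11.98 with a median of 10.47, and blocks 2, 3 and 4 had medians of 9.36, 9.73 and 9.51. Of block 1, 15 of 16 sheep were above the median of the others. None was above the highest, which was sheep oz175 of block 4 at 12.35 and 59013 reads. In *ZNF469*, block 1 ran from -0.36 to 3.94 with a median of 2.05, and blocks 2, 3 and 4 had medians of 1.30, 1.17 and 0.61. Here 6 of the 16 sheep of block 1 were higher than every sheep of the other blocks. *MMP1* went the other way. It ran from -3.90 to 1.51 with a median of -1.03 in block 1, and had medians of -0.60, 1.42 and 0.94 in blocks 2, 3 and 4. The 6 sheep without a read of *MMP1* fell into the first blocks, with 4 from block 1 and 2 from block 2. No sheep of block 3 had fewer than 3 reads of it, and no sheep of block 4 fewer than 2.

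**Figure D1:**
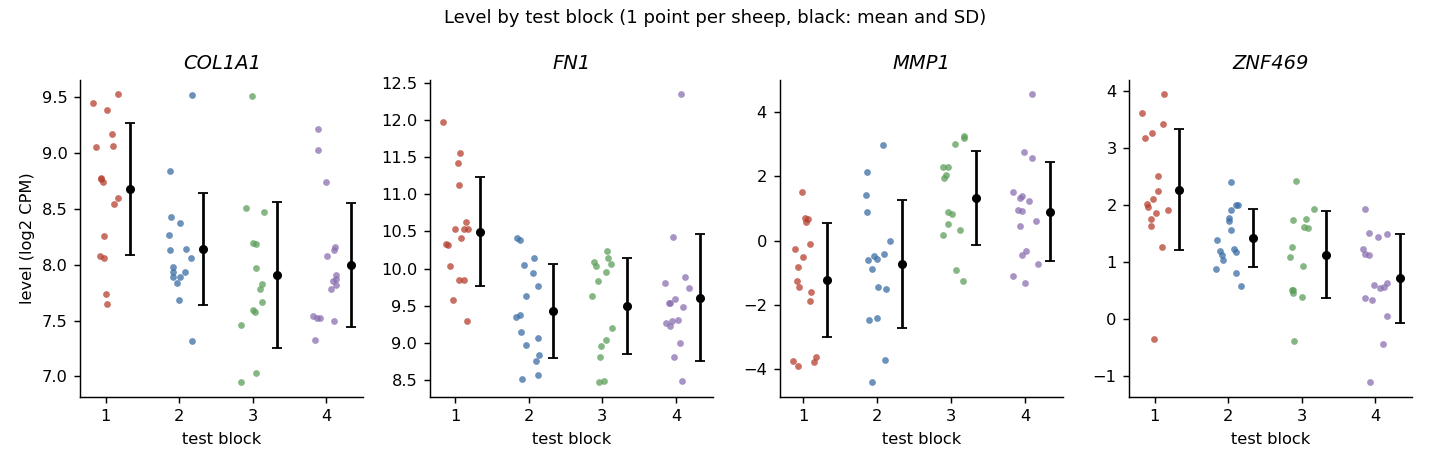
Levels of COL1A1, FN1, MMP1 and ZNF469 (log2 CPM, y axis, with a scale of its own in each panel) in the 62 sheep by test block (x axis), with 1 coloured point per sheep and the mean and SD of each block in black. Block 1 lies highest in COL1A1, FN1 and ZNF469, and blocks 3 and 4 lie highest in MMP1.

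All 4 genes passed the test of block 1 against blocks 2 to 4 in limma (Benjamini-Hochberg over 16011 genes), a test that 36.5% of all genes passed. *COL1A1* was higher in block 1 by 0.66 ± 0.16 (SE) log2, or 1.58-fold, with an adjusted p of 0.000855. *FN1* was higher by 0.99 ± 0.20, or 1.98-fold, with an adjusted p of 8.2e-05. *ZNF469* was higher by 1.18 ± 0.24, or 2.27-fold, with an adjusted p of 6.64e-05. *MMP1* fell by 1.68 ± 0.52 log2 in block 1, with an adjusted p of 0.0082. Its size depends on the offset, since on the log2(CPM + 1) scale the same difference was -0.80 with an adjusted p of 0.0146. A permutation test over sheep gave a two-sided p of 0.00032 for *COL1A1*, 2e-05 for *FN1* and *ZNF469* and 0.00298 for *MMP1*. Block 1 is a single test period, so these p set it against the spread between sheep and not between periods.

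The order of the blocks was not the same in the 4 genes. All 4 passed the limma test for any difference among the 4 blocks, as did 26.5% of all genes, with adjusted p of 0.00136 for *FN1*, 0.00769 for *COL1A1*, 0.000991 for *MMP1* and 0.000141 for *ZNF469*. Pairs of blocks were compared by permutation of the sheep, 24 pairs in all. For *COL1A1* and *FN1*, block 1 differed from each other block, with adjusted p between 0.00822 and 0.0183 for *COL1A1* and between 0.00144 and 0.00829 for *FN1*. Blocks 2 to 4 did not differ from each other beyond their spread in either gene, with adjusted p of 0.406 and above for *COL1A1* and 0.618 and above for *FN1* by permutation. *ZNF469* had means of 2.26 ± 1.06 (SD, n = 16), 1.42 ± 0.51 (n = 16), 1.12 ± 0.76 (n = 14) and 0.71 ± 0.79 (n = 16) in blocks 1 to 4. Besides block 1, blocks 2 and 4 differed in it (permutation test, adjusted p = 0.00888), and its neighbours in the order, 2 with 3 (adjusted p = 0.33) and 3 with 4 (adjusted p = 0.243), did not differ beyond their spread. *MMP1* split between the second and the third block, with means of -1.22 ± 1.77 and -0.72 ± 1.99 in blocks 1 and 2 against 1.33 ± 1.47 and 0.90 ± 1.54 in blocks 3 and 4. Each of blocks 1 and 2 differed from each of blocks 3 and 4 (permutation test, adjusted p from 0.00144 to 0.0261). Neither blocks 1 and 2 (adjusted p = 0.552) nor blocks 3 and 4 (adjusted p = 0.552) differed beyond their spread.

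Genes of muscle and of epithelial differentiation also moved with the blocks. Muscle content, taken as the mean log2 CPM of 578 genes of the study's muscle cluster without its matrix genes, averaged 6.15 ± 0.33 in block 1 and 5.73 ± 0.32 in the other 46 sheep, with 461 of its 578 genes higher in block 1 and 1 lower. Of all 16011 genes, 2755 were higher and 3087 lower in block 1. All 20 genes of a list of smooth muscle contractile genes, among them the myosin heavy chain *MYH11*, were higher in block 1, and their mean ran from 8.89 to 10.97 in block 1 and from 8.30 to 10.67 in the others. Of 43 genes of epithelial differentiation, 37 were lower in block 1 and none higher, and their mean ran from 5.70 to 8.08 in block 1 and from 7.13 to 8.23 in the others. *KRT78*, a keratin of the differentiated epithelium, averaged 10.13 ± 1.64 in block 1 and 11.75 ± 0.33 in the others. Another epithelial keratin outside the list, *KRT13*, averaged 10.65 ± 0.92 in block 1 and 10.35 ± 0.84 in the others. No gene of these 3 lists was at 0 reads in any library. The study built its networks from genes of at least 3 CPM in all samples. For genes taken from those networks this was fixed beforehand, so it does not show that both tissues were present in every sample. Why block 1 differed in these lists was not tested, and the block, the tissue make-up and the depth cannot be fully told apart in this design.

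With muscle content as a covariate, the difference of block 1 shrank in all 4 genes and passed in *ZNF469* only, while 14.1% of all genes passed. *ZNF469* was higher by 0.72 ± 0.25 log2 (limma, adjusted p = 0.0416). *FN1* then differed by 0.35 ± 0.17 (adjusted p = 0.161), *COL1A1* by 0.28 ± 0.16 (adjusted p = 0.239) and *MMP1* by -1.33 ± 0.59 (adjusted p = 0.126). In the test among the 4 blocks with the same covariate, which 8.66% of all genes passed, *MMP1* (adjusted p = 0.0174) and *ZNF469* (adjusted p = 0.0425) passed, and *COL1A1* and *FN1* did not. With the mean of the epithelial genes as a covariate in place of muscle content, a choice made after the data were seen, none of the 4 genes passed in block 1 or among the 4 blocks. Among the 4 blocks, *MMP1* then had an adjusted p of 0.0545 and *ZNF469* of 0.0751 in limma, and with both list means as covariates of 0.0515 and 0.146. *MMP1* moved most, to -0.38 ± 0.56 log2 (limma, adjusted p = 0.754), while *FN1* differed by 0.61 ± 0.23 (adjusted p = 0.0913), *ZNF469* by 0.70 ± 0.27 (adjusted p = 0.0985) and *COL1A1* by 0.35 ± 0.18 (adjusted p = 0.265). With the number of assigned reads as a covariate, *COL1A1*, *FN1* and *ZNF469* passed, and *MMP1* was at -1.26 ± 0.56 with an adjusted p of 0.0782.

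**Figure D2:**
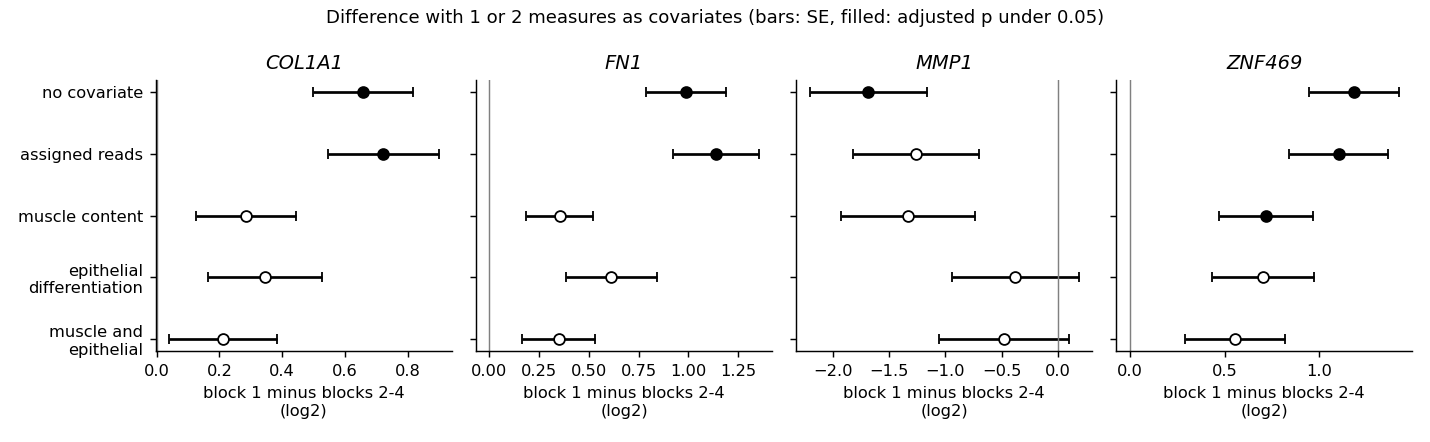
Difference between block 1 and blocks 2 to 4 (log2, x axis) of each gene in the limma fit without a covariate and with assigned reads, muscle content, epithelial differentiation or both list means as covariates (y axis). Bars are SE, and filled points have an adjusted p under 0.05. The values of COL1A1 and FN1 lie nearest 0 with muscle and epithelial genes together, and that of MMP1 with epithelial genes.

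The 4 genes followed muscle content to different degrees and not all in the same direction. Over all sheep, *FN1* rose by 1.71 ± 0.18 (SE) log2 per log2 unit of muscle content and *COL1A1* by 1.05 ± 0.17, which are descriptions, since these genes were put in the muscle cluster on these sheep. The r with muscle content was 0.76 for *FN1* and 0.62 for *COL1A1*, and was 0.61, 0.77, 0.75 and 0.73 within blocks 1 to 4 for *FN1* and 0.52, 0.38, 0.51 and 0.68 for *COL1A1*. Muscle content went with 58.5% of the variance of *FN1*, 37.8% of that of *COL1A1*, 33.8% of that of *ZNF469* and 9.34% of that of *MMP1*. By comparison, it went with 80.6% of the variance of *TIMP3*, an inhibitor of matrix proteases.

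*ZNF469* rose and *MMP1* fell with muscle content, as 55.0% of all genes did one or the other. *ZNF469* rose by 1.53 ± 0.27 per log2 unit (limma, adjusted p = 1.91e-06), with r of 0.48, 0.27, 0.33 and 0.68 within blocks 1 to 4. It still passed with block as a covariate (1.05 ± 0.29, adjusted p = 0.00191). *MMP1* fell by 1.63 ± 0.63 (adjusted p = 0.0237), and this slope rested on block 1. Within block 1 its r with muscle content was -0.67, and the 4 sheep of block 1 without a read of it had a muscle content of 6.38 to 6.51, in the upper part of the block. Within blocks 2, 3 and 4 the r was -0.20, 0.04 and 0.45, and without block 1 the slope was 0.12 with an adjusted p of 0.921. With block as a covariate it was -0.79 ± 0.65 with an adjusted p of 0.331. The test of whether the slope of *MMP1* differed between blocks gave an unadjusted p of 0.0145 and an adjusted p of 0.383 in limma.

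**Figure D3:**
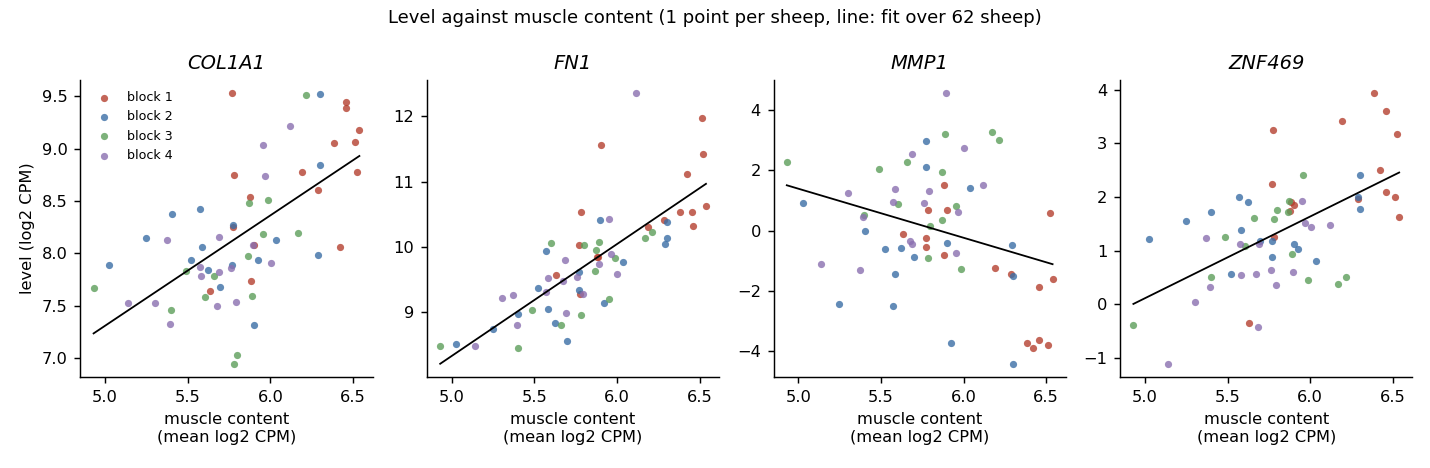
Level of each gene (log2 CPM, y axis, with a scale of its own in each panel) against muscle content (mean log2 CPM of 578 muscle cluster genes, x axis), with 1 point per sheep coloured by block and the fit over 62 sheep as a line. FN1 follows the line most closely (r = 0.76), and the falling line of MMP1 ends in a group of sheep of block 1 at the lower right.

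*MMP1* rose with the genes of epithelial differentiation. Its r with the mean of the 43 epithelial differentiation genes was 0.56 and its rho was 0.59 (permutation tests over 62 sheep, p = 2e-05 and 1e-05, the latter the smallest they can give, each 8.67e-05 after adjustment over 26 relations). When the 2 sheep with the most extreme epithelial mean were left out, r was 0.54, and within blocks 1 to 4 it was 0.57, 0.65, 0.29 and 0.58. Holding muscle content constant, r was 0.50 (adjusted p = 0.00024 by permutation), and without block 1 it was 0.49 (p = 0.00065 by permutation). The r of *MMP1* with each of the 43 genes was above 0, with a median of 0.47, against a median of 0.00 over all genes. Its genes of highest r among those with a symbol were *S100A9*, a subunit of the antimicrobial protein calprotectin (r = 0.68), *SLC5A1*, the sodium and glucose transporter (0.66), *PGK1*, an enzyme of glycolysis (0.66), the serine protease gene *Tmprss11g* (0.63) and *EIF4A1*, a helicase of translation (0.63). With muscle content held constant, *S100A9*, *EIF4A1*, *SLC5A1*, *PGK1* and the mitochondrial ADP/ATP carrier *SLC25A5* were highest, with r from 0.60 to 0.65. Depth moved with *MMP1* as well, with r of 0.35 between its level and the log2 of the assigned reads (adjusted p = 0.0121 by permutation), but of 0.00 within each of blocks 1 and 2 and of 0.68 and 0.47 in blocks 3 and 4. The part of depth in the relation with epithelial genes was not tested.

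With the collagens that it cuts, *MMP1* had values of r near 0 or below. Its r was -0.03 with *COL1A2* and 0.01 with *COL3A1*, the chain of type III collagen, and -0.32 with *COL1A1* (permutation test, adjusted p = 0.0142 over 5 pairs). Without block 1 its r with *COL1A1* was -0.10 (p = 0.516 by permutation). With the mean of the fibrillar collagens, r was -0.18 (permutation test, adjusted p = 0.19), and -0.33 without the 2 sheep of most extreme collagen mean (adjusted p = 0.0161 by permutation). With the basement membrane genes it was -0.37 (permutation test, adjusted p = 0.0071), and -0.31 with muscle content held constant (adjusted p = 0.0516 by permutation). With the 146 transcription regulators of the muscle cluster it was -0.38 (permutation test, adjusted p = 0.00511), and -0.37 with muscle content held constant (adjusted p = 0.0213 by permutation). These regulators come from the same cluster as muscle content. The r with them was -0.69, -0.30, -0.07 and 0.51 within blocks 1 to 4, and -0.05 over blocks 2 to 4 together. None of the 9 basement membrane genes had an r above 0 with *MMP1*, and their values ran from -0.59 to -0.02, while with muscle content held constant 6 of the 9 were above 0 and the values ran from -0.58 to 0.32. The log2 difference of *MMP1* and *TIMP3*, an inhibitor of matrix proteases, averaged -9.36 ± 1.99, -8.61 ± 2.03, -6.62 ± 1.55 and -6.84 ± 1.49 in blocks 1 to 4, where the low ends in blocks 1 and 2 are sheep without a read of *MMP1*, set by the offset. Block 1 was lower than the others, with a difference of -1.96 log2 (adjusted p = 0.00079 by permutation). In the residuals on muscle content, the difference between block 1 and the others was -0.91 (adjusted p = 0.0953 by permutation). These residuals were fitted without block, so -0.91 understates the difference at equal muscle content. These values compare sheep and not the levels of the 2 genes, which also depend on gene length.

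*COL1A1* moved with collagen genes, and in block 1 its partner chain did not rise with it. Its closest genes were *COL6A2* (r = 0.86) and *COL6A1* (0.85), chains of the collagen VI filaments around cells, *MRC2*, a receptor that takes up collagen (0.85), *PCOLCE*, which helps to trim the ends off procollagen (0.84), and *COL1A2* (0.82). The same 5 genes were closest with muscle content held constant, with r from 0.72 to 0.78, and *COL1A2* was then first. Over blocks 2 to 4 alone, the r with *COL1A2* was 0.91 and those with the other 4 genes were 0.78 to 0.80. Among all 16010 other genes, 749 had an r above 0.5 with *COL1A1* over all sheep and 21 with muscle content held constant. Its r with the mean of the fibrillar collagens was 0.85, and 0.85, 0.76, 0.95 and 0.88 within blocks 1 to 4. *COL1A2* and *COL3A1*, however, did not differ in block 1, by 0.08 ± 0.13 log2 (limma, adjusted p = 0.659) and 0.05 ± 0.14 (adjusted p = 0.817), where *COL1A1* was 0.66 higher.

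The balance of the collagen I chains was compared within each sheep. The log2 difference of *COL1A1* and *COL1A2* ran from -1.31 to 0.06 in block 1 and from -1.73 to -0.63 in the other blocks, and 10 of 16 sheep of block 1 were above all others. It averaged -0.62 ± 0.35 (SD, n = 16) in block 1 against -1.07 ± 0.23 (n = 16), -1.29 ± 0.22 (n = 14) and -1.24 ± 0.22 (n = 16) in blocks 2 to 4. The gap of 0.58 log2 between block 1 and the others had a permutation p of 1e-05, the smallest possible, and an adjusted p of 1.5e-05 over 3 such differences, which were chosen after the data were seen. The difference of *COL1A1* and *COL3A1* shifted by 0.61 log2 in the same way (adjusted p = 1.5e-05 by permutation). In the residuals of these differences on muscle content, the gaps were 0.35 and 0.40 (adjusted p = 0.000135 for both, by permutation). The residuals were fitted without block, so these values understate the gaps at equal muscle content. Over all sheep, the difference of *COL1A1* and *COL1A2* had r of -0.66 with the epithelial genes, 0.66 with 146 transcription regulators of the muscle cluster and -0.36 with the log2 of the assigned reads. Over blocks 2 to 4, these r were -0.14, 0.28 and 0.03, so they rested mainly on block 1. Their part in the gap was not tested, and the GC content and length of the transcripts were not used here.

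**Figure D4:**
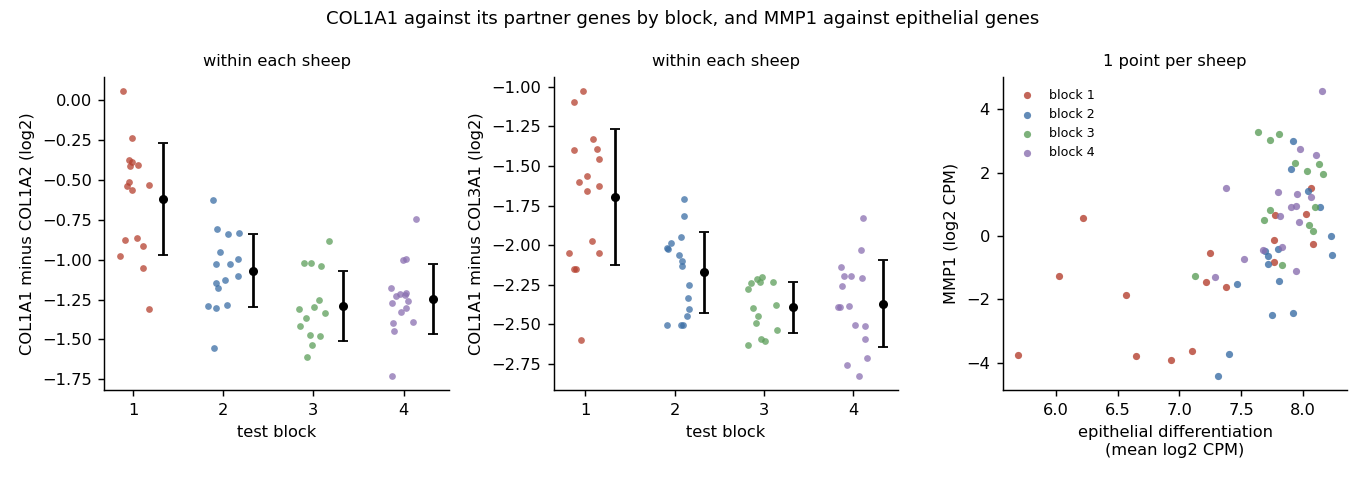
Log2 difference of COL1A1 and COL1A2 (left) and of COL1A1 and COL3A1 (middle) within each sheep by test block, with the mean and SD of each block in black, and the level of MMP1 (log2 CPM) against the mean log2 CPM of 43 epithelial differentiation genes (right), with 1 point per sheep. Block 1 averages -0.62 in the left panel and blocks 2 to 4 average -1.07, -1.29 and -1.24, and MMP1 rises with the epithelial genes (r = 0.56).

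The genes closest to *FN1* were *ILK*, the integrin-linked kinase (r = 0.91), *FLNC*, the muscle filamin (0.89), *FHL1*, a LIM domain protein of muscle (0.88), *MSN*, which ties the membrane to actin (0.88), and *CNN1*, the calponin of smooth muscle (0.87). With muscle content held constant, *MSN* (0.80), *ILK* (0.80), *FLNC* (0.72) and *FHL1* (0.69) were still among the 5 closest, joined by *ITGA5* (0.74), which encodes the alpha chain of the fibronectin receptor. Its partner chain *ITGB1* had r of 0.82 with *FN1* over all sheep and 0.60 with muscle content held constant. *FN1* and *COL1A1* had r of 0.59 with each other over all sheep and 0.23 with muscle content held constant, and within block 4 their r was 0.84 against 0.22, 0.38 and 0.41 in blocks 1 to 3. *FN1* had r of 0.50 with *COL1A2* and of 0.58 with *TIMP3*, and -0.38 with *TIMP3* with muscle content held constant. Among all other genes, 1205 had an r above 0.5 with *FN1* over all sheep and 67 with muscle content held constant. Over blocks 2 to 4 alone, its 5 closest genes had r of 0.83 to 0.89.

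Both *COL1A1* and *FN1* were lower in sheep with a higher mean of the epithelial differentiation genes. Their r with the mean of the epithelial genes was -0.52 for *COL1A1* (permutation test, adjusted p = 8.67e-05) and -0.53 for *FN1* (adjusted p = 0.000223). Within blocks 1 to 4 it was -0.35, -0.39, -0.35 and -0.64 for *COL1A1*, and -0.36, -0.51, -0.10 and -0.58 for *FN1*. Without block 1 it was -0.46 for *COL1A1* (p = 0.00131 by permutation) and -0.41 for *FN1* (p = 0.00502 by permutation). At constant muscle content it was -0.21 (adjusted p = 0.161 by permutation) and -0.10 (adjusted p = 0.504 by permutation). Neither gene passed with the number of assigned reads, with r of -0.09 for *COL1A1* (adjusted p = 0.486 by permutation) and -0.05 for *FN1* (adjusted p = 0.704 by permutation). Without block 1 these r were 0.20 for *COL1A1* (p = 0.183 by permutation) and 0.30 for *FN1* (p = 0.0397 by permutation), both unadjusted.

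The genes closest to *ZNF469* were *SF3A1*, a splicing factor (r = 0.84), *PRRC2A* (0.83), *PCNXL3* (0.83), the repressor *CIC* (0.82) and *MDC1*, which acts in the response to DNA damage (0.82), and the same 5 were closest with muscle content held constant, with r from 0.73 to 0.75. Its r with the mean of the 146 transcription regulators was 0.70, and 0.70 with muscle content held constant (permutation tests, adjusted p = 6.5e-05 and 0.00012), with 0.62, 0.39, 0.49 and 0.76 within blocks 1 to 4. These regulators were 0.39 log2 higher in block 1 at their median, with 120 of the 146 passing, against 36.5% of all genes. Against the contractile genes, its r was 0.34 over all sheep (adjusted p = 0.0124 by permutation) and -0.61 with muscle content held constant (adjusted p = 0.00012 by permutation). At constant muscle content, none of the 20 contractile genes had an r above 0 with *ZNF469*, and *MYH11* was at -0.65. The regulators come from the same muscle cluster as muscle content. Holding the mean of that cluster constant can set one part of it against another. The r of 0.70 and -0.61 are therefore not independent results, and the effect of the overlap was not tested. Over blocks 2 to 4 alone, its 5 closest genes had r of 0.65 to 0.75. Among all other genes, 1268 had an r above 0.5 with *ZNF469* over all sheep and 510 with muscle content held constant.

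With the fibrillar collagens, the values of r of *ZNF469* were spread out. Its r was 0.33 with their mean (permutation test, adjusted p = 0.0141), 0.51 with *COL1A1* (adjusted p = 0.00015), 0.09 with *COL1A2* and 0.03 with *COL3A1*. With muscle content held constant, the r with the mean of the fibrillar collagens was -0.11 (adjusted p = 0.49 by permutation). Its r with the epithelial genes, -0.56 over all sheep (adjusted p = 6.5e-05 by permutation), was -0.03 without block 1 (p = 0.84 by permutation). Its r with the basement membrane genes was 0.62 (adjusted p = 6.5e-05 by permutation), and 0.30 with muscle content held constant (adjusted p = 0.0587 by permutation). Its r with the log2 of the assigned reads was -0.29 over all sheep (adjusted p = 0.0303 by permutation) and 0.04 without block 1 (p = 0.772 by permutation).

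Relations among the 4 genes that passed over all sheep no longer passed with muscle content held constant or without block 1. Besides *COL1A1* and *FN1*, 5 pairs were tested, and 4 passed over all sheep. They were *COL1A1* with *ZNF469* (r = 0.51, rho = 0.56, adjusted p = 0.00015), *FN1* with *ZNF469* (r = 0.43, rho = 0.47, adjusted p = 0.00095), *MMP1* with *ZNF469* (r = -0.42, rho = -0.46, adjusted p = 0.00095) and *COL1A1* with *MMP1* (r = -0.32, rho = -0.33, adjusted p = 0.0142), all by permutation. *FN1* with *MMP1* did not pass (r = -0.21, rho = -0.21, adjusted p = 0.0966 by permutation). When the 2 most extreme sheep in the first gene were left out, the r of the 4 pairs that passed were 0.49, 0.47, -0.42 and -0.31. None of the 5 pairs passed with muscle content held constant, where the r nearest the threshold was -0.32 for *MMP1* and *ZNF469* (adjusted p = 0.0623 by permutation), and none passed without block 1. Without block 1, the r of the same 4 pairs were 0.33, 0.26, -0.24 and -0.10 over 46 sheep, with the lowest adjusted p at 0.133 by permutation. Within blocks 1 to 4, the r of *COL1A1* with *ZNF469* was 0.42, 0.62, -0.17 and 0.64. Interferon genes, a list of 16 of which 13 were lower in block 1, had r of -0.47 with *COL1A1*, -0.43 with *FN1*, -0.46 with *ZNF469* and 0.37 with *MMP1*, and none of these passed with muscle content held constant (lowest adjusted p = 0.0749 by permutation). The cell cycle list passed with none of the 4 genes by r, and its rho with *FN1* was -0.32 (adjusted p = 0.0208 by permutation). Of the 43 cell cycle genes, 7 were higher in block 1 and 0 lower, against 2755 higher and 3087 lower of all 16011 genes. The share of higher genes was near that of all genes, and the share of lower genes was below it.

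Most other matrix genes of the rumen wall were also higher in block 1 and rose with muscle content. Of 67 other genes of 8 matrix roles, 47 were higher and 2 lower in block 1, with a median of 0.40 log2 against -0.01 over all genes, of which 2755 were higher and 3087 lower. With muscle content as a covariate, 5 were higher and 7 lower (17.9%, near the 14.1% of all genes, of which 1157 were higher and 1102 lower), with a median of -0.07 against -0.02 over all genes. On muscle content itself, 63 of the 67 rose and 2 fell, with a median slope of 1.06 against -0.03 over all genes, of which 4164 rose and 4650 fell. Many of these genes come from the study's muscle cluster and were chosen on these sheep, so these counts are a description.

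The shares called by role are to be set against the 36.5% of all genes called in block 1. Among the structural collagens, 1 of the 4 other fibrillar genes was higher in block 1 (25%), *COL5A1* of type V collagen by 0.61 ± 0.13 log2 (adjusted p = 0.000155 in limma, as below). Of 7 other collagens, 6 were higher (85.7%), led by *COL6A1* (0.68 ± 0.13, adjusted p = 5.48e-05) and the basement membrane chains *COL4A1* (0.74 ± 0.16) and *COL4A2* (0.67 ± 0.15). In both groups, no gene passed with muscle content as a covariate. Of 9 genes that make and crosslink collagen, 2 were higher and 1 lower (33.3%), near the share of all genes. The higher ones were *PXDN* (0.36 ± 0.11) and *PCOLCE* (0.35 ± 0.10). *P4HB*, which folds proteins and is part of the enzyme that hydroxylates collagen, fell by 0.57 ± 0.09 (adjusted p = 5.05e-07). *P4HB* also stands in the list of epithelial differentiation genes. With muscle content as a covariate, *P4HB* (-0.29 ± 0.07, adjusted p = 0.00296) and *PCOLCE2*, a relative of *PCOLCE* (-0.42 ± 0.13, adjusted p = 0.024), were lower.

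In the basement membrane, 7 of 9 genes were higher (77.8%, against 36.5% of all genes called). *HSPG2*, which encodes perlecan, rose most (0.99 ± 0.14, adjusted p = 1.53e-07). It also passed with muscle content as a covariate (0.43 ± 0.08, adjusted p = 0.000266), as did the laminin chain *LAMA3* of epithelial basement membranes (0.35 ± 0.09, adjusted p = 0.00674), while the laminin chains *LAMB1* (-0.17 ± 0.06, adjusted p = 0.0426) and *LAMB2* (-0.16 ± 0.06, adjusted p = 0.0458) were lower there. Of 8 genes of elastic fibres and microfibrils, 5 were higher (62.5%), among them *LTBP3* (0.58 ± 0.13) and *ADAMTSL4* (0.82 ± 0.19), and none passed with muscle content as a covariate. Of 15 other glycoproteins and proteoglycans beside *FN1*, 13 were higher (86.7%), led by *TNXB*, a tenascin (0.95 ± 0.16, adjusted p = 3.36e-06). *TNXB* also passed with muscle content as a covariate (0.34 ± 0.11, adjusted p = 0.0193), while *OGN* was lower there (-0.34 ± 0.12, adjusted p = 0.0482).

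Of 12 matrix receptors, 10 were higher in block 1 and 1 lower (91.7%, against 36.5% of all genes called). The fibronectin receptor genes *ITGA5* (0.71 ± 0.14, adjusted p = 6.96e-05) and *ITGB1* (0.34 ± 0.12, adjusted p = 0.0203) were among the higher ones, and *ITGAV* fell by 0.24 ± 0.05 (adjusted p = 0.000397). With muscle content as a covariate, *CD44*, the receptor for hyaluronan (0.43 ± 0.09, adjusted p = 0.000683), and *ITGA5* (0.43 ± 0.15, adjusted p = 0.042) were higher, and *ANTXR2* (-0.31 ± 0.08) and the collagen receptor *DDR2* (-0.25 ± 0.07) were lower. Of the protease and inhibitor group, all 3 genes beside *MMP1* were higher in block 1 (*ADAM33* by 0.38 ± 0.13, *ADAM19* by 0.44 ± 0.16 and *TIMP3* by 0.28 ± 0.10), where *MMP1* was lower, and none passed with muscle content as a covariate.

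**Figure D5:**
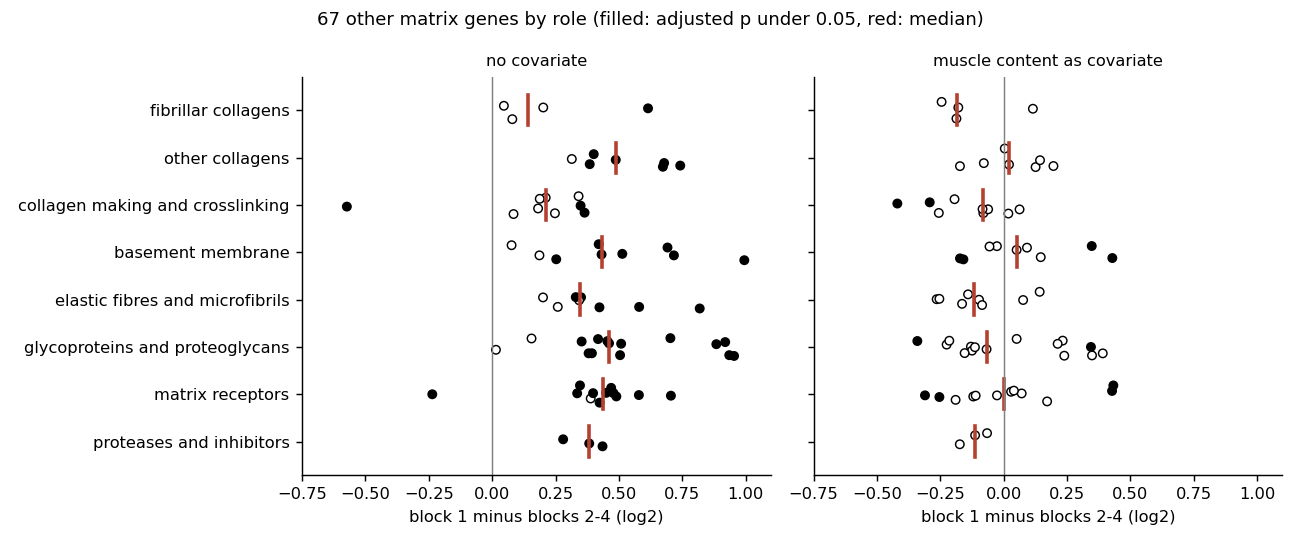
Difference between block 1 and blocks 2 to 4 (log2, x axis) of 67 other matrix genes by role (y axis), without a covariate (left) and with muscle content as a covariate (right), with 1 point per gene, filled where the adjusted p is under 0.05, and the median of each role in red. On the left 47 genes are higher and 2 lower, and on the right 5 are higher and 7 lower.

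Slopes on the traits were tested to see whether the 4 genes varied with what the sheep emitted, ate and weighed. CH4 production averaged 24.03 ± 4.72 g/d (SD) and live weight 63.6 ± 8.32 kg over 62 sheep. CH4 yield averaged 20.6 ± 3.34 g/kg dry matter intake (DMI) and DMI 1.20 ± 0.288 kg/d over 61 sheep, without sheep oz151 of block 3, whose labelled DMI of 0.0795 kg/d was far below the next, 0.376 kg/d in oz175. None of the 4 genes passed on any trait, among 15 slopes tested. Of all genes, 0.0125% passed on CH4 production, 0% on CH4 yield, 0% on DMI and 0.0187% on live weight, and 1449, 1521, 1899 and 1318 genes had an unadjusted p under 0.05. The slope of *ZNF469* on CH4 yield, which had a part in its choice, was -0.28 ± 0.12 log2 per SD of the trait and is given without a test. This slope was -0.06 ± 0.11 with block as a covariate and -0.36 ± 0.12 without oz175. With oz151 included, whose CH4 yield by its labels was 301 g/kg DMI, the slope turned to 0.11 ± 0.12. Of the 67 other matrix genes, none passed on any of the 4 traits in limma, and 2, 9, 7 and 2 had an unadjusted p under 0.05 for CH4 production, CH4 yield, DMI and live weight.

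*MMP1* had the 3 slopes with an unadjusted p under 0.05. The study had related *MMP1* to the time feed stays in the rumen in these sheep, and the paper links that time to intake. These slopes may therefore not be independent of the choice of *MMP1*, which was not tested. The gene had these slopes on CH4 production, DMI and live weight. It fell by 0.75 ± 0.23 log2 per SD of CH4 production (limma, unadjusted p = 0.00172, adjusted p = 0.246), by 0.75 ± 0.23 per SD of DMI (unadjusted p = 0.00204, adjusted p = 0.186) and by 0.67 ± 0.23 per SD of live weight (unadjusted p = 0.00578, adjusted p = 0.344). Over the alternative settings, single sheep left out aside, the adjusted p ran from 0.0949 to 0.405 for CH4 production, from 0.155 to 0.826 for DMI and from 0.157 to 0.416 for live weight. Within blocks 1 to 4 the slopes on CH4 production were -0.67, -0.95, 0.58 and -0.51, and the test of a difference between them gave an unadjusted p of 0.17 in limma. On DMI they were -0.68, -0.78, 0.44 and -0.48. On live weight they were -0.29, -1.36, -0.26 and -0.68, below 0 in every block. On CH4 yield, the slope of *MMP1* was 0.24 ± 0.25 (adjusted p = 0.777).

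*COL1A1*, *FN1* and *ZNF469* had slopes near 0 on CH4 production, of 0.08 ± 0.08 (limma, adjusted p = 0.827), -0.05 ± 0.10 (adjusted p = 0.946) and 0.07 ± 0.12 (adjusted p = 0.931). On CH4 yield, *COL1A1* and *FN1* were at -0.06 ± 0.08 (adjusted p = 0.83) and -0.01 ± 0.11 (adjusted p = 0.983), and here a single animal set the value. Sheep oz175, with the highest *FN1* of all and a DMI of 0.376 kg/d, moved the slope of *FN1* on CH4 yield to -0.26 ± 0.09 when left out (unadjusted p = 0.00642, adjusted p = 0.275) and that of *COL1A1* to -0.17 ± 0.08 (unadjusted p = 0.0295, adjusted p = 0.321). On DMI, *COL1A1* was at 0.15 ± 0.08 (adjusted p = 0.458), *FN1* at 0.04 ± 0.11 (adjusted p = 0.915) and *ZNF469* at 0.23 ± 0.12 (adjusted p = 0.445). Without oz175, the slopes on DMI were 0.21 ± 0.08 for *COL1A1* (limma, unadjusted p = 0.00654, adjusted p = 0.209) and 0.18 ± 0.10 for *FN1* (adjusted p = 0.431). On live weight the 3 genes were between 0.01 and 0.06 log2 per SD, with adjusted p from 0.925 to 0.998.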

How the data were processed

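The table deposited by the authors holds log2 CPM values of voom (offset 0.5 reads) for 16011 genes in 62 libraries. They made stranded, ribosomal RNA depleted libraries, mapped the reads to sheep gene models of Ensembl with TopHat on Bowtie2 and counted them with HTSeq. The submitters' notes also name edgeR and limma. The study states a minimum of 1 CPM in all samples, yet 4390 genes, *MMP1* and *ZNF469* among them, were below it in some library. Whole reads were recovered from the steps of the values (100% whole, tolerance 0.01 reads) and served for depth, counting error and alternatives. Read intervals and floors cover counting error only.

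Genes were fitted with limma 3.58.1 in R 4.3.3 (variance trend on mean expression), with Benjamini-Hochberg adjustment over all genes and a threshold of 0.05. Slopes on traits are per SD of the trait. For relations across sheep, r is Pearson's and rho Spearman's, both tested by 100000 permutations (two-sided). Families were 26 relations with list means or depth, 5 pairs of the 4 genes, 24 pairs of blocks and 3 differences of genes. With muscle content held constant, residuals on it were used. For the 3 differences of genes, residuals were taken of the difference only, and block was not adjusted for muscle content. Python 3.11.15 and numpy 2.4.6 were used.

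The 4 genes and all lists were chosen with earlier results of these data known. Of other matrix genes, up to 3 per role with the lowest p in block 1, with and without muscle content as covariate, were named, besides *COL1A2*, *COL3A1*, *ITGA5*, *ITGB1* and *TIMP3*, and for each of the 4 genes the 5 genes of highest r. *MYH11*, *KRT78* and *KRT13* were named as markers. Symbols were known for 1224 genes, many drawn from networks of these sheep, so the closest genes are the closest among these. Coordinates, lengths and sequences were not used here. Fits were tested on simulated data with known changes.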

Additional observations from a re-analysis of the deposited data

How the results depend on the processing

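Scaling, log offset, precision weights and the number of reads changed few calls of the 4 genes. In block 1, *COL1A1*, *FN1* and *ZNF469* passed under log2(CPM + 1), median-of-ratios scaling, voom weights and assigned reads as a covariate, and *MMP1* passed under all of these but the last. With only genes at 3 CPM or more, *MMP1* and *ZNF469* were not tested. Leaving out each sheep in turn, a choice made after the data were seen, all 4 genes passed each time, with ranges of 0.60 to 0.73 for *COL1A1*, 0.89 to 1.07 for *FN1*, -1.87 to -1.51 for *MMP1* and 1.07 to 1.36 for *ZNF469* (limma, log2). The fall of *MMP1* with muscle content ranged from -1.88 to -1.39 and lost its call without any 1 of 4 sheep of block 1 (oz171, oz165, oz85 and oz109, adjusted p up to 0.0596). It also did not pass under log2(CPM + 1) (-0.47, adjusted p = 0.231) or with the contractile list as the measure of muscle (-0.63, adjusted p = 0.175), and it reversed without block 1 (0.12). The other slopes on muscle content ranged from 1.00 to 1.11 for *COL1A1*, 1.62 to 1.75 for *FN1* and 1.40 to 1.64 for *ZNF469*. No paired analysis was possible because the labels give no replicate numbers and each sheep belongs to 1 block.

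The number of all genes passing in block 1, 5842, fell to 2259 with muscle content, 1089 with epithelial differentiation and 950 with both as covariates. Among the 4 blocks, 4242 fell to 1387, 576 and 539. On CH4 production, 2 genes passed, against 0 at 3 CPM or more, 1 under median-of-ratios scaling, 39 with muscle content, 4 with block, 10 with both, 6 with assigned reads as covariates and 0 without block 1. On CH4 yield, 0 genes passed, against 1 with voom weights, 1 with assigned reads, 2 with oz151 and 18 without oz175. On DMI, 0 passed, against 3 with muscle content and 4 without oz175. On live weight, 3 passed, against 1 at 3 CPM or more, 1 with voom weights, 77 with muscle content, 0 with block and 39 with both as covariates. Of the pairs of the 4 genes, 4 passed, against 0 with muscle content held constant and 0 without block 1. The cause of these changes was not tested.

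None of the trait slopes of the 4 genes passed under any alternative, and 24 of 188 changed sign. On CH4 production these were *ZNF469* with block (-0.057), with block and muscle (-0.013) and without block 1 (-0.0098), and *FN1* over sheep left out in turn (-0.076 to 0.052). On CH4 yield they were *COL1A1* with muscle (0.0098), block (0.041) and both (0.047) and without block 1 (0.017), *FN1* likewise (0.11, 0.11, 0.12 and 0.17) and over sheep left out (-0.26 to 0.034), *MMP1* with block (-0.16) and with block and muscle (-0.16), and *ZNF469* with oz151 (0.11). On DMI they were *FN1* with muscle (-0.041), block (-0.078) and both (-0.052) and without block 1 (-0.14). On live weight they were *FN1* with muscle (-0.017) and both (-0.021) and over sheep left out (-0.027 to 0.057), and *ZNF469* over sheep left out (-0.044 to 0.11). The r of *FN1* with *MMP1* turned to 0.034 with muscle content held constant and 0.067 without block 1, and that of *FN1* with *ZNF469* to -0.021 with muscle content held constant. *MMP1* and *ZNF469* rest on few reads, which limits what their values can show in single sheep.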
